A study of Mus musculus with 6 samples.

Results

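Of the 41014 ATAC-seq peaks listed for untreated V6.5 mouse embryonic stem cells (mESCs), 40228 lay on chromosomes 1 to 19, and 706 of these (1.75%) were 1300 bp or wider. These 706 wide peaks were chosen by the listed width alone, that is, by the end minus the start of each peak, and the other 39522 autosomal peaks served as the comparison. The wide peaks covered 4.57% of all autosomal bases in listed peaks. ATAC-seq uses the Tn5 transposase, which cuts and tags DNA that is not wrapped in nucleosomes. The series holds 6 ATAC-seq libraries, 2 of untreated V6.5 mESCs, 2 of mESCs whose ZBTB21 protein carries a degron tag, before indole acetic acid (0 h), and 2 of the same cells after 6 h of this agent, which triggers loss of the tagged protein. The degron libraries were not analysed here. The V6.5 line was grown on irradiated mouse embryonic fibroblasts, as feeder cells, with leukaemia inhibitory factor, and 50000 cells went into each library. The authors' culture methods for mESCs, which do not name the line, also list the compounds CHIR99021 and PD0325901 in the medium. The labels call the V6.5 libraries untreated, while a treatment text that all labels share describes degron cells given doxycycline at 1 µg/ml for 24 h. The list of the untreated condition pools its 2 replicates and gives no value per replicate. The depth of the libraries and the spread between replicates are therefore unknown here, no test over samples could be made, and all comparisons below describe 1 list. Intervals are at the 95% level (Wilson for shares, Newcombe for differences of shares, order statistics for medians) and cover counting error only. Neighbouring peaks are not independent, which the intervals do not take into account.

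A peak marks a stretch of DNA where transposase cuts, or the sequenced fragments between them, pile up. Which of these was counted here is not given in the sources used. Mono- and dinucleosome fragments were selected in library preparation, so a peak may also take in DNA of nucleosomes. What this does to the widths was not tested. Most peaks of a mammalian genome are short and stand at enhancers or at sites of DNA-binding proteins such as CTCF, while active promoters carry an accessible stretch around the transcription start site (TSS). Many mammalian promoters lie in CpG islands, stretches rich in G and C in which the dinucleotide CpG has been kept, whereas most of the genome has lost CpG through methylation and mutation of cytosine.

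The range of sequence among the wide peaks is seen in 5 of them, given here as the exon-free window of 300 bp nearest to the centre of each peak, on the plus strand of GRCm38 (the assembly that mm10 names), 5′ to 3′, with each CpG in capitals. Klf9 is shown as the widest peak, Srsf1 as a promoter rich in CpG, Lefty1 as a promoter poor in CpG, Foxn3 as the peak with the highest score away from promoters, and 2700054A10Rik as the peak with the largest share of repeats.
Klf9 (chr19:23134955-23135254): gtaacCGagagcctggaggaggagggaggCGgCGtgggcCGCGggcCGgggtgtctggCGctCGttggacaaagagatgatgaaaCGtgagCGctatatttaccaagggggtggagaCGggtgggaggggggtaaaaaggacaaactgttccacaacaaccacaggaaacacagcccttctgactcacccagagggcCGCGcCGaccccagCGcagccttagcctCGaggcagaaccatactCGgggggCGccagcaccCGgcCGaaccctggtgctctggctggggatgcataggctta
Srsf1 (chr11:88048033-88048332): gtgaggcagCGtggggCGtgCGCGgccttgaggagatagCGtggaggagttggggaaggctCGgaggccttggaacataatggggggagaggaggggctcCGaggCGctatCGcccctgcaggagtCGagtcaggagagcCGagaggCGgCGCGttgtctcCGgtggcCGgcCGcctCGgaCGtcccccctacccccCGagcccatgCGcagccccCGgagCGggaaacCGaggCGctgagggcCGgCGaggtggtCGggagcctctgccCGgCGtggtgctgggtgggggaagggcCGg
Lefty1 (chr1:180934181-180934480): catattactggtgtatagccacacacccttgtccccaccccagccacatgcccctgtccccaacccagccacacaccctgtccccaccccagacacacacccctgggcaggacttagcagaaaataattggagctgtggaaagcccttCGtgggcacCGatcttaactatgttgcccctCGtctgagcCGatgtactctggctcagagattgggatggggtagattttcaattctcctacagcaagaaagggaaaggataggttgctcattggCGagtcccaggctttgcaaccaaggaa
Foxn3 (chr12:99412365-99412664): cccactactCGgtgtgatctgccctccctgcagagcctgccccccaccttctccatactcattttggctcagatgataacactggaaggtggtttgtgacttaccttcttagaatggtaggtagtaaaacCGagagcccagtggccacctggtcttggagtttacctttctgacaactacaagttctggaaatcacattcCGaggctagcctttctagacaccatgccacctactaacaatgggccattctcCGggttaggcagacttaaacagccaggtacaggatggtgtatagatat
2700054A10Rik (chr17:13551747-13552046): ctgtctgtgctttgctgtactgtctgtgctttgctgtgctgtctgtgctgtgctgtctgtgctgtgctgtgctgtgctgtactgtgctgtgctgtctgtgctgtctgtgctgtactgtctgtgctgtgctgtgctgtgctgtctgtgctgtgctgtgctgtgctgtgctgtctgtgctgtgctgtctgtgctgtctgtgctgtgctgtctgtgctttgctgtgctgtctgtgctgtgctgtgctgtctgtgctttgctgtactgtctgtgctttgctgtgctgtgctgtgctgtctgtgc
The Klf9 window lay 6121 bp upstream of the TSS, had a GC content of 63.0% and held 20 CpGs. The Srsf1 window lay in the gene, 810 bp downstream of the TSS, and had the most CpGs of the 5 (31) at a GC content of 72.7%. The Lefty1 window, 691 bp upstream of its TSS, held 5 CpGs and the Foxn3 window, 37559 bp downstream of the TSS in an intron, held 4. In the 2700054A10Rik window the letters CTGTG recur from end to end, and it held 0 CpGs and was repeat-masked over 91.0% of its length.

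The widths of the wide peaks had a median of 1463.5 bp (25th percentile 1362, 75th percentile 1634), against 543 bp for the others. At 1500 bp or more were 298 of them and at 2000 bp or more 31. There was no gap at the threshold. Among the narrowest wide peaks, each of 1300 bp, were those at H2bc13, Mastl, Hyal2 and the shared start of Dnaja1 and Gm6297. The 5 widest peaks below it, of 1298 or 1299 bp, had Igfbp2, Zfp385a, Ppp2ca, Tmem30b and Snx24 as nearest genes. Both sets were chosen by width, so these values only describe the edge of the selection.

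**Figure D1:**
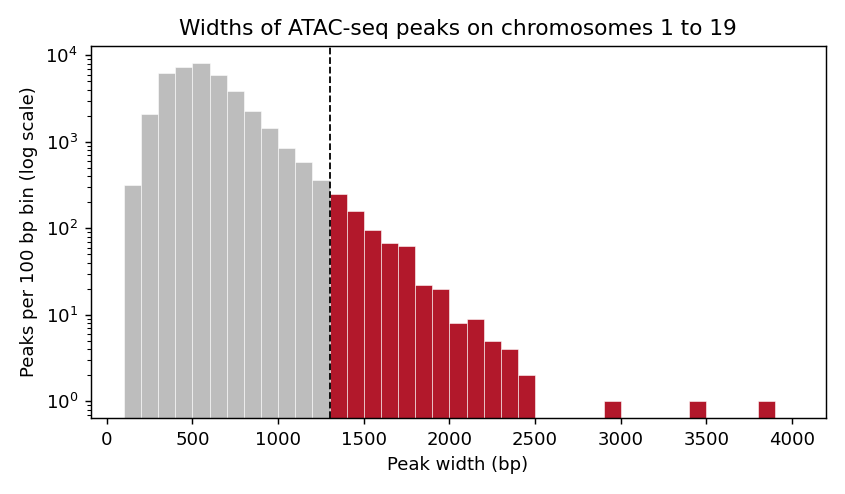
Number of autosomal peaks (log scale) by peak width in bins of 100 bp, with the wide peaks in red to the right of the dashed line at 1300 bp. The counts fall off without a break at the line, and 3 single peaks stand apart on the far right, at 2922, 3421 and 3891 bp.

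The widest peak, of 3891 bp, lay in intergenic DNA on chromosome 19 from 23132986 to 23136876, 4350 bp from the nearest TSS, that of Klf9, a Krüppel-like zinc finger transcription factor. Its score was 577. The peak next in width, of 3421 bp, covered the TSS of the long noncoding RNA 4930526I15Rik on chromosome 9, and ended 169168 bp before the end of the chromosome sequence. The one after that, of 2922 bp, covered a TSS of Nr3c1, which encodes the glucocorticoid receptor, with 978 bp upstream and 1943 bp downstream of the TSS. Among the 20 widest, the other peaks that covered a TSS were those of Fbxl19 (an F-box protein with a CpG-binding CXXC domain, 2343 bp), Schip1 (2327 bp), Stox2 (2299 bp), Pde3b (a cyclic nucleotide phosphodiesterase, 2239 bp), Setd7 (a lysine methyltransferase, 2154 bp), Phc1 (a Polycomb protein, 2148 bp), Tpm4 (a tropomyosin, 2148 bp), Kcnn2 (a potassium channel, 2120 bp) and Fam43b (2115 bp). The Pde3b, Setd7 and Kcnn2 peaks each covered the start of a noncoding RNA as well. Within 1 kb of a TSS without covering it lay those of 2700054A10Rik (2462 bp), Sp8 (a zinc finger transcription factor, 2290 bp) and the small nucleolar RNA Snora73b (2213 bp). Farther away lay those with Elovl3 (a fatty acid elongase, 2428 bp), C330008A17Rik (2377 bp), 4933404K08Rik (2335 bp), Chadl (2236 bp) and Ptprf (a receptor tyrosine phosphatase, 2196 bp) as nearest genes. The peaks nearest to Elovl3 and Chadl were centred in coding exons, which need not be exons of these genes.

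Most wide peaks stood at promoters. A RefSeq TSS lay inside 462 of the 706 wide peaks (65.4%, 61.9 to 68.9%) and inside 11.8% of the others. Within 1 kb of a TSS, the distance taken here as a promoter, were 484 wide peaks (68.6%, 65.0 to 71.9%) and 5682 of the others (14.4%, 14.0 to 14.7%), against 15.3% of all autosomal peaks. The difference was 54.2 percentage points (50.6 to 57.5). A wide peak reaches a TSS more easily than a narrow one. When only the centre of a peak was asked to lie within 1 kb of a TSS, so that its width does not enter, the share of wide peaks was 66.1% and the difference 52.6 percentage points. Between 1 and 10 kb from a TSS lay 77 wide peaks (10.9%, against 21.7% of the others), between 10 and 100 kb 127 (18.0%, against 52.9%), and beyond 100 kb 18 (2.55%, against 11.1%).

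**Figure D2:**
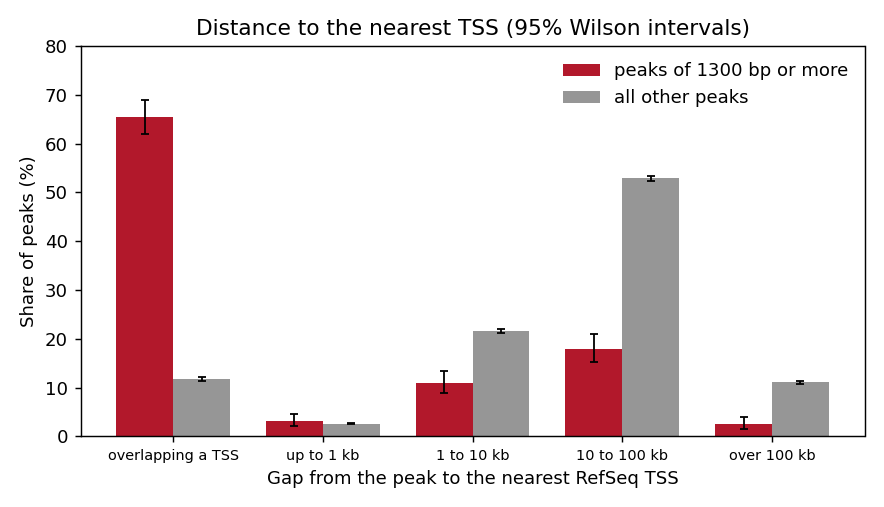
Share of peaks (%) by the gap between the peak and the nearest RefSeq TSS, for the 706 wide peaks (red) and the 39522 others (grey), with Wilson 95% intervals. Wide peaks that cover a TSS make up 65.4%, while the largest class of the others, 52.9%, lies 10 to 100 kb away.

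The promoter share grew with width below the threshold and just above it. It was 3.49% in peaks under 300 bp, 9.68% at 500 to 599 bp, 34.2% at 800 to 999 bp, 54.1% at 1150 to 1299 bp and 63.7% at 1300 to 1499 bp. From 1500 bp on it lay between 69.4 and 77.4%, with intervals that overlap. By the centre of the peak, the share within 1 kb of a TSS was 62.3% at 1300 to 1499 bp. It was 74.9% at 1500 to 1749 bp, 68.1% at 1750 to 1999 bp and 58.1% in the 31 peaks of 2000 bp or more. The excess of promoters was therefore not confined to peaks past 1300 bp.

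Transcripts that start close together on opposite strands can share 1 accessible stretch. The TSSs of 2 or more genes lay inside 72 wide peaks (10.2%, 8.18 to 12.7%), against 1.42% of the others, and in 68 of these 72 they were on both strands. Most of this gap goes with how often a peak covers any TSS. Among peaks that do, the shares were 15.6% (12.6 to 19.2%) and 12.1%, a difference of 3.50 percentage points (0.330 to 7.21). Only 2 peaks held the TSSs of 3 genes. One was the 1530 bp peak of Gm44505, Lpxn and Zfp91, and the other the 1300 bp peak of Gm6297, Mir207 and Dnaja1, which encodes a co-chaperone of the HSP40 family. A single gene, Rarg, which encodes a retinoic acid receptor, had wide peaks at more than 1 of its promoters, of 1422 and 1317 bp. Protein-coding genes had the nearest TSS to 447 of the 484 wide promoter peaks (92.4%, against 88.7% of the other promoter peaks). The nearest TSS was that of a small nucleolar RNA for 6 wide peaks (0.850%, 0.390 to 1.84%, against 0.190% of the others), namely Snora73b, Snord65, Snord47, Snora62, Snord12 and Snord15b. These RNAs guide chemical modification of other RNAs and mostly lie in introns of host genes. The TSS used for them, and for microRNAs such as Mir207, was the annotated 5′ end of the RNA. Whether transcription starts there was not checked.

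By the centre of the peak, 130 wide peaks lay in 5′ UTRs (18.4%, against 3.84% of the others), 81 in coding exons (11.5%, against 3.42%), 187 in introns (26.5%, against 41.1%) and 283 in intergenic DNA (40.1%, against 49.5%). At promoters, coding exons took 14.3% of the centres of wide peaks (11.4 to 17.7%) and 7.37% of the centres of other peaks (6.72 to 8.08%), whereas 5′ UTRs took 26.9 and 26.4%.

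Around the TSS, the wide peaks extended farther into the gene than away from it. In the 390 wide peaks that held TSSs of 1 gene, the peak reached a median of 608 bp (570 to 673) upstream and 900 bp (850 to 947) downstream of the first TSS. In 4090 other peaks of this kind the medians were 357 bp and 344 bp. The downstream side was already the longer in the widest of these other peaks. The medians were 495 bp upstream and 568 bp downstream at 1000 to 1149 bp, and 538.5 and 676.5 bp at 1150 to 1299 bp. At 1300 to 1499 bp they were 589 and 795 bp, so the asymmetry was not confined to peaks past the threshold. More of the peak lay downstream than upstream in 258 of the 390 (66.2%, 61.3 to 70.7%), against 49.6% of the others (48.0 to 51.1%), a difference of 16.6 percentage points (11.5 to 21.4). Genes with several TSSs in 1 peak add to the downstream side, since the first TSS was taken. With 1 TSS position in the peak, the share was 63.3% (n = 327) against 48.2% (n = 3766). The downstream reach came to 1639.5 bp and the upstream reach to 823.5 bp at 2000 bp or more, a class of 14 peaks, and to 1207 and 661 bp in the 42 peaks of 1750 to 1999 bp. Single peaks departed from this in both directions. The Stox2 peak reached 130 bp upstream and 2168 bp downstream of its TSS, and that of Schip1 1996 bp upstream and 330 bp downstream.

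**Figure D3:**
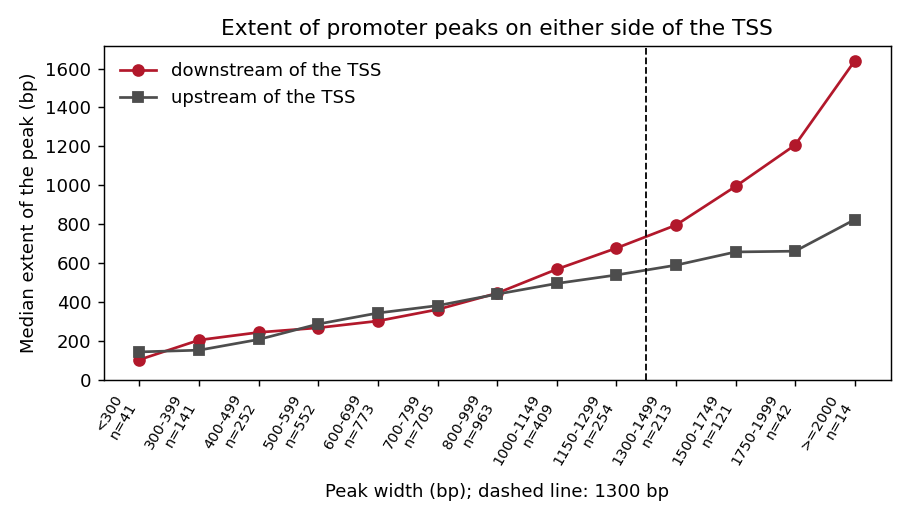
Median extent (bp) of peaks with TSSs of 1 gene, downstream (red) and upstream (grey) of the first TSS, by peak width, with the number of peaks per class under the axis. Up to 999 bp the lines run close together. From 1000 bp on, left of the dashed line at 1300 bp, the downstream extent is already the larger. Right of the line it grows to 1207 bp and, in the last class of 14 peaks, to 1639.5 bp.

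Wide peaks, above all those at promoters, were richer in GC and CpG than the others. In the central 500 bp, a window of the same length for every peak, the median GC content was 62.3% (60.8 to 64.0%) in wide peaks and 51.4% in the others. The ratio of observed to expected CpGs, which is 1 where CpG is as frequent as its bases allow, had medians of 0.703 (0.668 to 0.727) and 0.244. A centre with a GC content of at least 50% and a ratio of at least 0.6, called CpG-island-like here, was found in 415 wide peaks (58.8%, 55.1 to 62.4%) and in 9.59% of the others. Part of this goes with promoters. Among promoter peaks alone the shares were 78.3% (74.4 to 81.7%) and 56.5% (55.2 to 57.7%), a difference of 21.8 percentage points (17.8 to 25.5). With the window centred on the TSS inside the peak, they were 82.1% of 390 and 62.4% of 4090. Away from promoters, 36 of 222 wide peaks (16.2%, 11.9 to 21.6%) and 1.72% of the others had such a centre. The share of CpG-island-like centres grew from 0.902% in peaks under 300 bp to 43.6% at 1150 to 1299 bp, 52.7% at 1300 to 1499 bp and 68.2% at 1500 to 1749 bp, and was 66.7 and 61.3% in the 2 widest classes. The highest GC content of a centre among wide peaks, 83.4%, was that of Hipk2, which encodes a nuclear kinase. The lowest, 38.6%, was in the peak nearest to Gm6871, 20794 bp from its TSS.

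**Figure D4:**
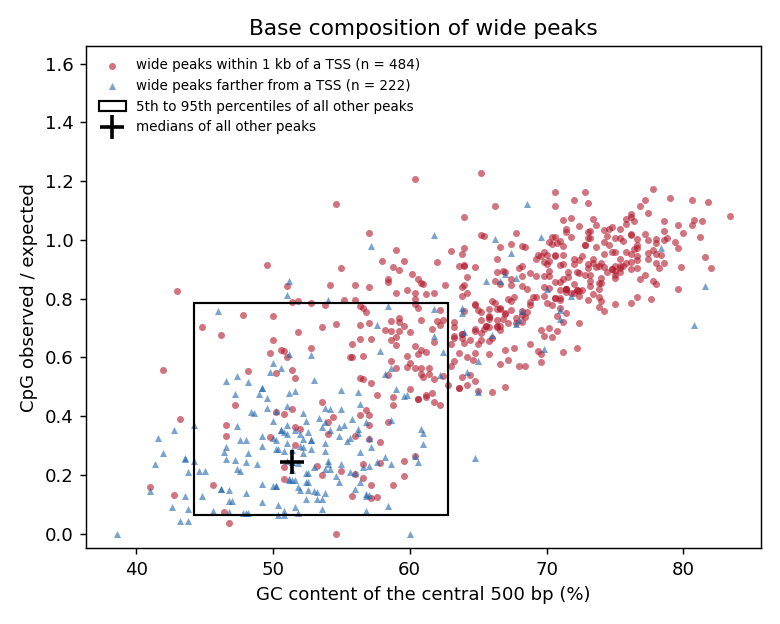
GC content (%) and CpG ratio of the central 500 bp of each wide peak, at promoters (red circles) and away from them (blue triangles), with the 5th to 95th percentiles of all other peaks as a box and their medians as a cross. Wide promoter peaks spread to the upper right of the box (medians 66.7% and 0.802), while the wide peaks away from promoters lie mostly inside it (medians 52.4% and 0.311).

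Over all autosomal peaks, repeats took up less of the wide peaks, but not within promoters, and away from promoters the medians were close. Lower-case, repeat-masked bases of the RefSeq sequence made up a median of 7.58% of a wide peak (7.19 to 8.28%) and 11.0% of the others (10.8 to 11.1%). Among promoter peaks the medians were 6.57% (6.13 to 7.05%) for wide peaks and 6.02% (5.82 to 6.19%) for the others, and away from promoters 12.0% (10.4 to 13.7%) and 12.3%. Over 50% of the bases were masked in 8 wide peaks (1.13%, 0.575 to 2.22%), against 9.07% of the others, a contrast that was not split by location. The highest masked share, 97.8%, was that of the 2700054A10Rik peak shown above. Of the other 7 such peaks, 1 lay at a promoter, that of Mtf2, which encodes a Polycomb-like protein, and 6 lay between 5803 and 47495 bp from the nearest TSS, those of Acly, Erh, Rictor, Dap, Msh6 and Tnpo3.

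Short sequence motifs were searched in the central 500 bp on both strands, as exact letters. None of the motifs contains another, though the GC box and the CTCF part share the letters GGGGCG. At promoters, the GC box GGGGCGGGG, bound by SP and KLF factors, was in 25.8% of wide peaks (22.1 to 29.9%) and 19.3% of the other peaks. The ETS motif CCGGAAGT was in 2.48% of wide promoter peaks (1.42 to 4.28%) and 9.19% of the others. The CCAAT box ATTGGCT was in 4.96% (3.35 to 7.27%) and 14.7%. The part AGGGGGCGC of the CTCF motif was in 4.96% and 2.29%. For the cAMP response element TGACGTCA the shares were 1.03 and 3.38%, for the AP-1 motif TGANTCA 4.96 and 8.96%, for the NRF1 motif GCATGCGC 2.07 and 4.45%, for the YY1 motif AAGATGGCG 3.31 and 3.75%, and for the E-box CACGTG 9.71 and 12.6%. The intervals of the differences for YY1 and the E-box spanned 0. The centre of a wide peak lies farther from the TSS. A window at the TSS was searched only in the 390 wide and 4090 other peaks that held TSSs of 1 gene, so the set of peaks changed too. In this window the GC box was in 35.9% of wide and 21.0% of other peaks, and the ETS motif in 3.59 and 10.2%. The CCAAT box was in 8.46 and 15.7%, and the CTCF part in 4.87 and 2.40%. There the cAMP response element was in 1.54 and 3.74% and the AP-1 motif in 5.13 and 8.48%. The E-box was in 10.5 and 12.7%, with an interval of the difference that spanned 0 (-5.10 to 1.35 percentage points). The NRF1 motif was in 3.85 and 4.94%, with an interval of the difference that spanned 0 (-2.75 to 1.39 percentage points), and the YY1 motif in 5.13 and 4.28%, which turned its direction, again with an interval that spanned 0. Away from promoters, AP-1 letters were in 12.2% of wide peaks (8.49 to 17.1%) and 18.4% of the others. There the POU octamer ATTTGCAT was in 1.80 and 4.39%, and the ESRRB motif TCAAGGTCA in 3.15 and 2.18%, with intervals of the differences that spanned 0. The ETS motif went the other way there, with 2.70% of wide peaks against 1.14% of the others (difference 0.0989 to 4.63 percentage points). The GC box was in 8.56 and 5.14% and the E-box in 12.2 and 8.36%. A match shows only that the letters are in the window.

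Wide peaks did not have the highest scores. The score is a whole number listed with each peak, from 540 to 953 over the list. The IDR software, which rates how well replicates match, writes a score of 540 at an IDR of 0.05. Width and score come from the same peak calls, so the scores are a description. Their median was 652 (643 to 659) in wide peaks and 697 in the others. Scores of 800 or more were given to 52 wide peaks (7.37%), against 14.6% of the others, and scores under 600 to 187. Within promoter peaks the medians lay farther apart, at 651.5 and 749, and away from promoters they were 653 and 690. Along the classes of width the median score did not move in one direction. It was 625 under 300 bp, reached 748 at 700 to 799 bp, and then was 733, 687, 668, 665, 636 and 641 up to 1999 bp and 604 (589 to 631) in the 31 peaks of 2000 bp or more.

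**Figure D5:**
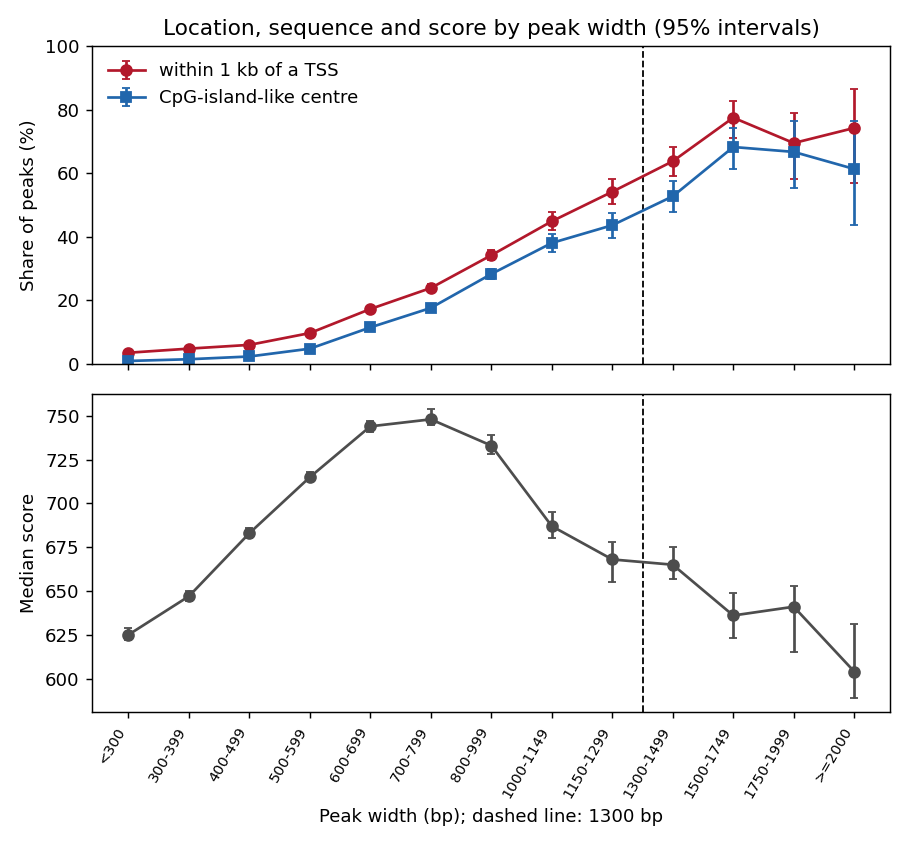
Upper panel, share of peaks (%) within 1 kb of a TSS (red) and with a CpG-island-like centre (blue) by peak width. Lower panel, median score of the same peaks, with 95% intervals in both. Both shares grow up to 1500 to 1749 bp, beyond the dashed line at 1300 bp, and vary within overlapping intervals after that, while the median score has its highest value, 748, at 700 to 799 bp and its lowest, 604, in the widest class.

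The location of wide peaks differed little with the score. With all autosomal peaks divided by score into 4 classes of about equal size, from the lowest to the highest scores, 265, 214, 142 and 85 wide peaks were found. Of these, 69.4, 65.4, 69.0 and 72.9% lay at promoters, with overlapping intervals. Among the other peaks, the shares were 10.4, 9.95, 11.1 and 25.9%.

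The 5 highest scores among wide peaks were all at promoters. That of Gsk3b, the kinase that restrains Wnt signalling, had 919 at 1333 bp. Those of Pnrc1 (898), Dcaf6 (894), Pask (884, a PAS domain kinase) and Srsf5 (883, a splicing factor) came next, and all of them but Pnrc1 also covered the start of another gene. Away from promoters, the highest score, 875, was that of the 1325 bp peak in an intron of Foxn3, a forkhead transcription factor. The lowest scores were also at TSSs. Crk (an adaptor protein), Fam43b and Ddx6 (an RNA helicase) had 540, and Ppp1r3g and Taf4b (a subunit of TFIID) had 541, the score of the Nr3c1 peak as well.

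The nearest other peak lay at a median of 10515.5 bp (9519 to 11412), and of 9404 bp for the others. Another peak lay within 5 kb of 161 wide peaks (22.8%, 19.9 to 26.0%), against 31.5% of the others. At promoters the shares were 20.9 and 28.8%. Away from promoters they were 27.0 and 32.0%, with an interval of the difference that spanned 0 (-10.4 to 1.23 percentage points), and the nearest peak lay at medians of 9115 and 9337.5 bp. Within 50 kb there was a median of 4 other peaks around a wide peak (3 to 4) and of 3 around the others. At promoters these medians were 3 (3 to 4) and 4 (3 to 4), and away from promoters 4 (4 to 5) and 3. The neighbours themselves were ordinary, with a median width of 556 bp (533 to 573) and a median score of 694.5, against 541 bp and 695 for the neighbours of the other peaks. The nearest peak was itself wide for 6 wide peaks (0.850%) and for 1.65% of the others, and the interval of the difference spanned 0 (-1.28 to 0.194 percentage points). The widths depend on where one peak was taken to end and the next to begin. With peaks within 500 bp of each other merged, 1200 stretches were 1300 bp or wider.

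Within 50 kb of another wide peak stood 58 of the 706, in 29 pairs, 11 of which had the same nearest gene for both peaks. Of all autosomal peaks 1.75% were wide, and a median of 4 other peaks lay within 50 kb of a wide peak. Some pairs are therefore found in any case. The share of the other peaks with a wide peak within 50 kb was not computed, so the pairs are only listed. The closest pair, 5042 bp apart, was at Socs3, which encodes an inhibitor of LIF and STAT3 signalling, with widths of 1344 and 1370 bp. Pairs within 10 kb were also found at Ptprf (2196 and 1390 bp) and Rarg. At Srsf1, a peak of 1492 bp at the promoter had a partner of 1469 bp at a gap of 18269 bp. A further pair was that of Lefty2 and Lefty1, which encode inhibitors of Nodal signalling and lie close together on chromosome 1, with peaks of 1305 and 1510 bp at a gap of 43911 bp. The 4930526I15Rik peak had a wide partner of 1803 bp at 13158 bp.

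By chromosome, the share of wide peaks lay between 0.952% on chromosome 16 (13 peaks, 0.557 to 1.62%) and 2.88% on chromosome 19 (36 peaks, 2.09 to 3.96%). On chromosome 11, 72 peaks were wide (2.25%, 1.79 to 2.83%), and on chromosome 5, 34 (1.22%, 0.873 to 1.70%). The intervals of the other 15 chromosomes held the overall 1.75%.

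A wide peak lay within 1 kb of a TSS of 570 genes. Among 20021 autosomal protein-coding genes, 512 had one (2.56%), while 5765 (28.8%) had any listed peak there. Of the genes with a promoter peak, 8.88% thus had a wide one. Marker genes were counted the same way. Any promoter peak was listed for 11 of 28 pluripotency genes, among them Pou5f1, Nanog and Zfp42, and for 2 of 18 fibroblast genes (Thy1 and Pdgfrb), which stand for the feeder cells. No promoter peak was listed for Sox2, Klf4 or Esrrb, which mESCs are known to express, or for the fibroblast collagens Col1a1, Col1a2 and Col3a1. Their part in the results was not tested.

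Among the 28 pluripotency genes, Lefty1 had a wide promoter peak (3.57%, 0.633 to 17.7%, near the 2.56% of all protein-coding genes), of 1510 bp and a score of 760, and it was poor in CpG (ratio 0.199). Wide peaks away from promoters had Prdm14 (1620 bp, 30952 bp away), Fgf4 (1411 bp, 2930 bp away), Utf1 (1374 bp, 5845 bp away) and Lefty2 (3443 bp away) as nearest genes. Their GC contents lay between 41.0 and 55.0%, and none of them had a CpG-island-like centre. The widest promoter peak of Pou5f1 had 993 bp, that of Nanog 425 bp and that of Tbx3 833 bp. Of the 18 fibroblast genes, 0 had a wide peak at the promoter or were the nearest gene of one.

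In other groups of genes the counts were also small. Of 22 immediate early genes, which respond within minutes to growth signals, 14 had a promoter peak and 2 a wide one, Jun (1967 bp, score 708) and Egr1 (1710 bp, score 711). Of 28 splicing factor genes, 9 had a promoter peak and 3 a wide one, namely Srsf1 (1492 bp), Srsf5 (1572 bp) and Hnrnpk (1595 bp), with CpG ratios of 1.08, 0.911 and 1.05. A wide peak of 1670 bp overlapped the Hnrnpa2b1 gene, 9215 bp from the nearest TSS. Of 29 genes of chromatin regulators, Kmt2d, which encodes a histone H3 lysine methyltransferase, had a wide promoter peak (1350 bp). An intronic peak of 1392 bp in Tet2, which encodes a 5-methylcytosine dioxygenase, had a score of 821. Of 30 lineage regulator genes, 8 had a promoter peak and 0 a wide one, and a peak of 1628 bp had Sox1 as nearest gene at 49665 bp. Promoter peaks of any width were listed for 11.1% of fibroblast, 26.7% of lineage regulator, 27.6% of chromatin regulator and 32.1% of splicing factor genes. They were listed for 36.7% of long noncoding and imprinted, 39.3% of pluripotency and 63.6% of immediate early genes. Over all protein-coding genes the share was 28.8%. Of 30 long noncoding and imprinted genes, the imprinted gene Zrsr1 had a wide promoter peak (1475 bp, score 770), and a peak of 1732 bp with a score of 851 lay in an intron of the imprinted gene Peg3, 1444 bp from the TSS. Replication-dependent histone genes lie close together, and 6 of 62 (H1f1, H1f3, H2ac13, H2bc13, H3c10 and H4c11) had a wide peak, in 4 peaks, 1 of which covered or neighboured 3 of these genes. A promoter peak of any width was listed for 31 of the 62 histone genes (50%), also above the 28.8% of all protein-coding genes. Read against the 2.56% of all protein-coding genes, the intervals of the shares held this value for the lists other than the splicing factors (10.7%, 3.71 to 27.2%) and the histone genes (9.68%, 4.51 to 19.5%). Both lists were chosen with results of these data known, and the histone genes share peaks, so that their intervals are too narrow. The long noncoding and imprinted list also holds noncoding genes, which the share over protein-coding genes leaves out.

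Wide peaks far from genes were few. Beyond 100 kb of any TSS, the widest were those nearest to Mir1904 (1816 bp, score 796), Klf12 (1796 bp, score 551) and Pdzd2 (1787 bp, score 724). The most remote lay 717961 bp from its nearest TSS, that of 1700025O08Rik, and had 1392 bp. Of the 222 wide peaks away from promoters, 133 (59.9%, 53.3 to 66.1%) were centred in intergenic DNA and 69 (31.1%) in introns, against 50.7 and 44.5% of the other peaks there.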

How the data were processed

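The authors deposited 1 list of ATAC-seq peaks for the 2 untreated V6.5 replicates, with mm10 coordinates and a score per peak. Mono- and dinucleosome fragments were selected in library preparation. The submitters' processing notes name cutadapt 2.6, Bowtie2 2.3.5.1 and MACS2 2.1.1. How ATAC-seq peaks were called, and whether cut sites were shifted for Tn5, is not given in the sources used here, and adjacent summits may have been joined or split, which sets the widths. The score was read as a scaled IDR score from its values alone.

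Peaks were joined to 31647 TSSs of curated RefSeq transcripts on GRCm38 (gap from the peak edge), and base composition was taken from the RefSeq sequence. No peak overlapped another (0) or ended beyond its chromosome (0). Counting functions were tested on simulated data. Python 3.11.15, numpy 2.4.6, pandas 2.3.3, scipy 1.17.1, pysam 0.24.0 and matplotlib 3.10.9 were used.

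The wide peaks, gene lists and motifs were chosen with earlier results of these data known. The histone list, the Foxn3 peak, the repeat-rich peaks, the extremes of base composition and the small nucleolar RNA genes were added after values were seen. Otherwise, named peaks were the 20 widest, the 3 widest per distance class, the 5 highest and lowest scores, the 5 peaks on either side of the threshold, peaks with TSSs of 3 genes, pairs within 50 kb, and listed genes with a wide peak. A peak at the threshold that this rule names is not reported here. The alternatives were other widths, chromosomes, scores, TSS sets, distances, windows and merging.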

Additional observations from a re-analysis of the deposited data

Results flagged for a closer look

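Peaks outside chromosomes 1 to 19 entered no comparison, and 10 of them were 1300 bp or wider. On X these were 9 of 759 peaks (1.19%, Wilson 95% interval 0.625 to 2.24%), an interval that holds the 1.75% of the autosomes. Of the 9, 6 covered a TSS, those of Fgf13 (2081 bp), Nr0b1 (1542 bp), Diaph2 (1408 bp), Platr21 (1381 bp), Rap2c (1361 bp) and Rab33a (1311 bp). Nr0b1 encodes a nuclear receptor of the pluripotency network. The remaining peak lay on an unplaced sequence and had 1317 bp.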

How the results depend on the processing

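Over 13 values, 68 were recomputed under alternatives, of which 34 stayed within the interval of the value (a count within 1.5 times) and 0 changed direction. With a width of 1200 bp or more there were 1069 wide peaks, 64.5% at promoters (50.5 percentage points above the others), with a median GC content of 60.6% (9.2 points above). With 1500 bp or more there were 298, 75.2% at promoters (60.3 points above), with a GC content of 65.4% (14.0 points above), a median score of 634 (difference -62), the nearest peak at 12240.5 bp and 15.4% with another peak within 5 kb. With peaks within 500 bp merged there were 1200. Using only peaks with a score above the list median of 696, there were 227, with a median score of 752 (difference -15), a GC content of 59.8% (7.8 points above), the nearest peak at 17349 bp and 13.7% with one within 5 kb. With XM and XR transcripts added, 74.4% lay at promoters. GC content over the whole peak was 60.5% (8.42 points above). Between centres, the nearest peak lay at 11556 bp, and 14.9% had one within 5 kb. With promoter peaks only, chosen after seeing the data, the GC content was 66.7% (7.7 points above), the score difference -97.5, the nearest promoter peak at 76622.5 bp, and 6.40% had one within 5 kb. In a window at the TSS, also chosen afterwards and limited to the 390 wide peaks with TSSs of 1 gene, the GC box was in 35.9% and the CCAAT box in 8.46%. Why these values moved was not tested.

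No paired analysis was possible because the list pools both replicates and has no value per replicate, and for the same reason no replicate was left out. Depth and the reproducibility of the widths are unknown.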
